A study of Mus musculus with 14 samples.

Results

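The decay of transcripts in wild-type (WT) cells was examined by how many m6A peaks each transcript carried. The WT cells were E14Tg2a mouse embryonic stem cells (mESCs), grown on gelatin with the cytokine LIF, which keeps the cells undifferentiated. In the actinomycin D course the WT cells were exposed to 5 µg/ml of the drug, which blocks transcription, for 0, 4 or 8 h, with 1 library per time. In the methylated RNA immunoprecipitation (MeRIP-seq), 2 IP and 2 input libraries of untreated WT cells had been turned by the authors into 1 peak list. Knock-in cells carrying the METTL14 R255K substitution, treated in the same way with 1 library per time, are used here for side values only. Genes were chosen by their measured level, an FPKM (counts divided by exonic length and by the summed counts of the library) of at least 1 in the WT library at 0 h, and were grouped by the number of WT peaks that overlap their exons. This kept 11648 of 52459 genes, of which 4910 had 0 peaks, 3885 had 1, 1756 had 2 and 1097 had 3 or more, up to 17 on 1 gene. Of these genes 10114 were protein-coding.

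m6A is the methylated adenosine that METTL3 and METTL14, with WTAP and other subunits, write into nascent mRNA, mostly in the sequence GGAC. In the cytoplasm the reader YTHDF2 binds it and brings the CCR4-NOT deadenylase to the transcript, which shortens the poly(A) tail and leads to decay. In mESCs many transcripts of pluripotency and signalling factors are methylated and short-lived. m6A lies mostly in long internal exons and last exons, and the exon junction complex is known to keep it away from sequence near splice junctions.

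Peaks on these genes were placed by their summit. Of 11417 pairs of a peak and a gene, 5537 had the summit in coding sequence (CDS), 4107 in a 3′UTR, 713 in a 5′UTR, 568 in another exon and 492 outside the exons that the peak overlapped. Windows of 101 bases centred on the summits were read on the gene's strand and searched for GGAC. It was found in 62.8% of the windows of genes with 1 peak (95% Wilson interval 61.3 to 64.4), 62.0% with 2 peaks and 58.8% with 3 or more. Windows of the same length at the middle of the exonic sequence were read only for genes where the window lay within 1 exon. They held it in 28.6% of 3551 such genes with 0 peaks. In the other classes the shares were 30.8%, 30.7% and 30.3% of 2952, 1407 and 904 such genes. A match is a description of the sequence and does not show a methylated base.

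The following 21-base windows hold the GGAC nearest to the summit in peaks of genes whose decay is given below. Only peaks with a GGAC near the summit gave a window, so the shared motif follows from this choice. The windows therefore cannot compare transcripts that nearly vanished with transcripts that did not fall. Peaks without a GGAC near the summit occurred on both, such as a 3′UTR peak of *Nodal* and a 3′UTR peak of *Glod4*. The windows were read from mm10 on the strand of the gene, with the motif in capitals.
*Klf4* 3′UTR, chr4:55527794-55527814, minus strand: acatgcccGGACttacaaaat
*Klf4* CDS, chr4:55530215-55530235, minus strand: tgagcgctGGACcccagctca
*Klf4* 5′UTR, chr4:55532151-55532171, minus strand: acggtgggGGACactgctgag
*Klf2* CDS, chr8:72319766-72319786, plus strand: tggcccacGGACcgcgcgggc
*Klf2* 3′UTR, chr8:72320999-72321019, plus strand: tatttattGGACcttaggaca
*Nodal* CDS, chr10:61423149-61423169, plus strand: ccagagcgGGACcccgctgac
*Nodal* CDS, chr10:61418459-61418479, plus strand: cctcgggcGGACatcatccgc
*Zfp296* CDS, chr7:19580451-19580471, plus strand: tggtctggGGACtggtaaaac
*Sox2* CDS, chr3:34650884-34650904, plus strand: cagcgcatGGACagctacgcg
*Socs3* 3′UTR, chr11:117967203-117967223, minus strand: ggaggtggGGACacctccaag
*Nanog* CDS, chr6:122713388-122713408, plus strand: ttcggggaGGACtttctgcag
*Pou5f1* CDS, chr17:35506230-35506250, plus strand: ctggaatcGGACcaggctcag
*Glod4* 3′UTR, chr11:76211619-76211639, minus strand: gctagattGGACtgtgggcct
*Lamtor2* CDS, chr3:88552352-88552372, minus strand: atcctgatGGACtgcatggta

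The summed counts of the 3 WT libraries lay between 13812160 and 17428469. Markers of pluripotent cells were abundant at 0 h, as the label of the line says, with *Pou5f1* at an FPKM of 433, *Zfp42* at 430 and *Sox2* at 230. A value after actinomycin D compares a transcript with the rest of its library, since scaling rested on summed counts and not on spike-in RNA, and fewer cells and less RNA per cell cannot be told apart. With 1 library per time there was no replicate check, so no test was run and no p-value is given. Intervals of medians come from order statistics and cover the spread between genes only, and intervals of single genes cover counting error only.

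The more peaks a gene carried, the further its transcript fell after the transcription block. The median log2 ratio of FPKM at 8 h over 0 h was 0.24 (95% interval 0.20 to 0.28) for 0 peaks, −1.06 (−1.16 to −0.98) for 1 peak, −2.07 (−2.19 to −1.94) for 2 peaks and −2.71 (−2.82 to −2.60) for 3 or more. The median transcript thus stood at 118% of its 0 h level without a peak, at 47.9% with 1 peak, at 23.8% with 2 and at 15.3% with 3 or more. At 4 h the medians were already in this order, at 0.22, −0.41, −0.99 and −1.43. From 4 to 8 h, an interval that does not use the library which chose the genes, they were 0.03, −0.52, −0.79 and −1.05. Genes with 0 peaks took up 39.0%, 48.0% and 52.5% of all counts at 0, 4 and 8 h, and genes with 3 or more took up 11.8%, 7.26% and 5.30%.

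**Figure D1:**
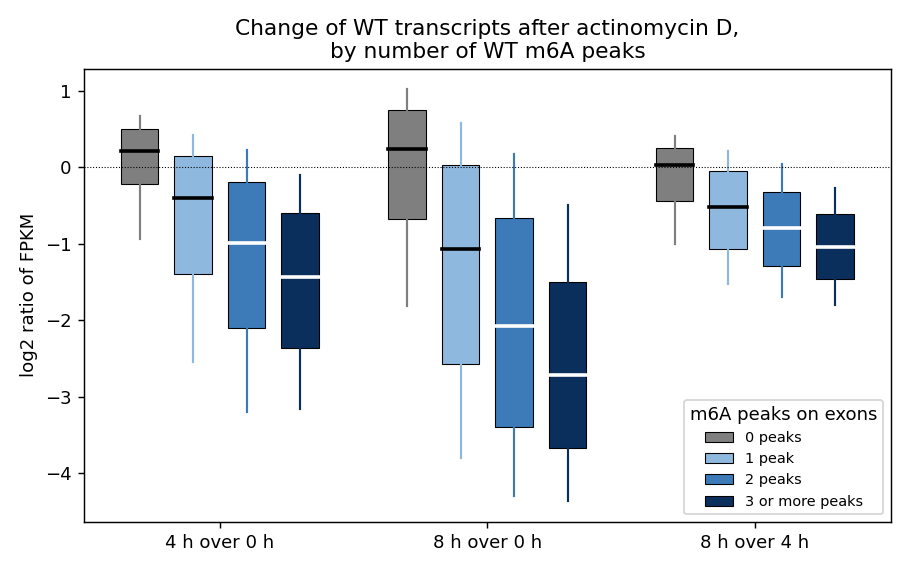
Log2 ratio of FPKM (vertical axis) between the WT libraries at 4 and 0 h, 8 and 0 h, and 8 and 4 h, for genes with 0, 1, 2 and 3 or more m6A peaks. Boxes span the quartiles with the median as a line and whiskers run from the 10th to the 90th percentile of genes; in each interval the median is lower with each step of peak number, and at 8 h over 0 h it goes from 0.24 to −2.71.

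A fall of at least 2-fold in FPKM was used to count genes. Of all 11648 genes 43.5% fell this far from 0 to 8 h, and 5.25% rose at least 2-fold. Of the genes with 0 peaks 977 fell (19.9%, Wilson interval 18.8 to 21.04), and of those with 1 peak 1984 (51.1%, 49.5 to 52.6). With 2 peaks 1203 fell (68.5%, 66.3 to 70.6) and with 3 or more 902 (82.2%, 79.9 to 84.4). The number that rose was 545 with 0 peaks, 61 with 1, 3 with 2 and 2 with 3 or more. The split of calls moved with the scaling of the libraries, which shifts all genes alike. Over all genes 5066 fell and 611 rose with summed counts. With edgeR's TMM factors the log2 ratios were 0.48 higher, 4205 genes fell and 2323 rose, and relative to the median of ribosomal protein genes they were shifted by −0.73, 6723 fell and 37 rose. The median of genes with 0 peaks was 0.72 and −0.49 under these scalings, so its sign depends on the scaling, while differences between classes do not. From 0 to 4 h 28.2% of all genes fell, with 9.35%, 32.6%, 49.6% and 62.8% in the order of the classes. From 4 to 8 h 24.6% of all genes fell, with 10.1%, 27.7%, 40.0% and 53.4%.

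Single genes of each class spread on both sides of no change. Among genes with 0 peaks the middle 50% of log2 ratios at 8 h over 0 h ran from −0.68 to 0.75, and among those with 3 or more from −3.67 to −1.51. The level at 8 h was above that at 0 h for 2855 genes with 0 peaks (58.1%), 1002 with 1 peak (25.8%), 247 with 2 (14.1%) and 50 with 3 or more (4.56%). A half-life was computed from the mean of the decay rates over 4 and 8 h for each gene whose mean rate was above 0. That was so for 38.0%, 70.6%, 83.9% and 94.2% of the genes in the order of the classes, and the median half-life of these genes was 8.38, 4.33, 3.15 and 2.74 h. Over all genes of a class, with the others counted as longest-lived, it was 8.44, 3.96 and 2.89 h for 1, 2 and 3 or more peaks and had no finite value for 0 peaks. These shares and half-lives rest on scaling by summed counts and would move with the scaling. The median log2 ratio at 8 h over 0 h of genes with 1 peak was −1.06 with summed counts. It was −0.59 with TMM factors and −1.79 relative to ribosomal protein genes. At 8 h 484 genes had 3 counts or fewer and were set to 3 counts, and 632 genes had under 30 counts at 0 h. The 3 genes just below the limit of FPKM 1, *Rpl30-ps8*, *C2cd2* and *Mfsd4a*, had 6, 114 and 125 counts at 0 h, and the 3 just above it, *Tmem181b-ps*, *Gnaz* and *Tsix*, had 73, 63 and 106.

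Genes with more peaks were also longer and had their exons less densely spaced. The median exonic length was 2628 bases with 0 peaks, 3990 with 1, 4797 with 2 and 6927 with 3 or more, and the median number of exons per kb of exonic sequence was 2.94, 2.34, 1.94 and 1.68. Exons here are the listed exons of a gene, merged where they overlap or adjoin. Their numbers, kinds and lengths therefore need not be those of any 1 transcript. The median FPKM at 0 h differed little, at 8.84, 8.64, 8.17 and 7.52. Genes were therefore compared within 25 bins formed from 5 equal groups of FPKM at 0 h and 5 of exonic length, and the differences of the bin medians were averaged by the number of genes with peaks.

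Within these bins the difference in log2 ratio at 8 h over 0 h between genes with 1 peak and genes with 0 peaks was −1.13 (−1.22 to −1.05). For 2 peaks against 0 it was −1.99 (−2.13 to −1.85), and for 3 or more against 0 it was −2.54 (−2.70 to −2.39). The median of the genes with peaks was the lower one in all 25 bins for 1 peak, in all 24 bins with enough genes for 2 peaks, and in all 20 for 3 or more. The further steps were −0.92 (−1.07 to −0.76) for 2 peaks against 1 and −0.67 (−0.87 to −0.47) for 3 or more against 2. Between 4 or more peaks and exactly 3 the difference was −0.16, and its interval of −0.44 to 0.12 included 0. From 4 to 8 h the differences from 0 peaks were −0.41, −0.65 and −0.84 for 1, 2 and 3 or more peaks.

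In 17 of the 20 bins with all 4 classes the median fell with each step. The other 3 bins all held genes of the second length group, with 13 to 17 genes of 3 or more peaks each, and there 3 or more peaks gave no lower median than 2. In the lowest FPKM group of that length the medians were −3.01 with 2 peaks and −2.64 with 3 or more. The gap between 0 peaks and 1 peak was narrower among highly expressed genes. In the highest FPKM group (29.4 and above) the medians were 0.66, 0.13, −0.59 and −1.91 for 0, 1, 2 and 3 or more peaks, against −0.08, −1.78, −2.70 and −2.80 in the lowest.

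**Figure D2:**
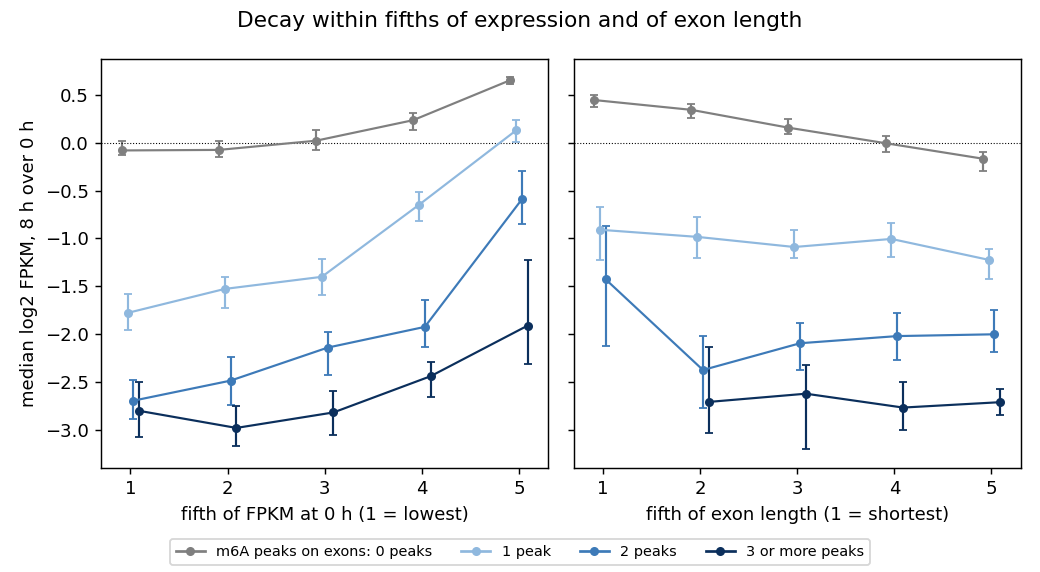
Median log2 ratio of FPKM at 8 h over 0 h (vertical axis) in 5 equal groups of genes by FPKM at 0 h (left) and by exonic length (right), for genes with 0, 1, 2 and 3 or more peaks. Bars are 95% order-statistic intervals, points with under 30 genes are left out, and the 4 classes keep their order in every group that is drawn, from 0.66 to −1.91 at the highest FPKM.

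Exon density went with decay among genes with peaks, while among genes with 0 peaks the interval of the difference included 0. Within bins of FPKM and length, the genes of each class were divided into 3 equal groups by exons per kb, and the densest were compared with the least dense. Among genes with 0 peaks the difference at 8 h over 0 h was 0.00 (−0.10 to 0.10). Among genes with 1, 2 and 3 or more peaks, the dense genes stood higher by 1.14 (0.94 to 1.33), 1.22 (0.92 to 1.53) and 1.12 (0.80 to 1.44). In the 5 equal groups of all genes by exon density, the median with 1 peak went from −2.22 at the lowest density to −0.26 at the highest, and with 3 or more peaks from −3.24 to −0.83. The interval of the last value is wide (−1.70 to −0.49, 53 genes). From 4 to 8 h the densest genes were higher by 0.28, 0.13 and 0.18 with 1, 2 and 3 or more peaks and by 0.02 with 0 peaks.

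The step from 0 peaks to each other class was of similar size when exon density was matched together with FPKM and length, at −1.17 (−1.27 to −1.08), −1.99 (−2.13 to −1.84) and −2.45 (−2.61 to −2.29). In the WT libraries GC content moved with the log2 ratio in every class, in contrast to exon density. The GC-rich genes of the 3 groups stood higher than the GC-poor by 0.44, 0.62, 0.80 and 0.76 in the order of the classes. In the R255K libraries, given below without matching, the GC-rich group had the lower median in every class. Whether the WT trend belongs to decay or to these libraries was not tested. Peak class alone took up 26.4% of the variance of the log2 ratio across genes. FPKM, length, GC content and exon density in a linear model took up 15.0% without peak class and 33.9% with it.

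**Figure D3:**
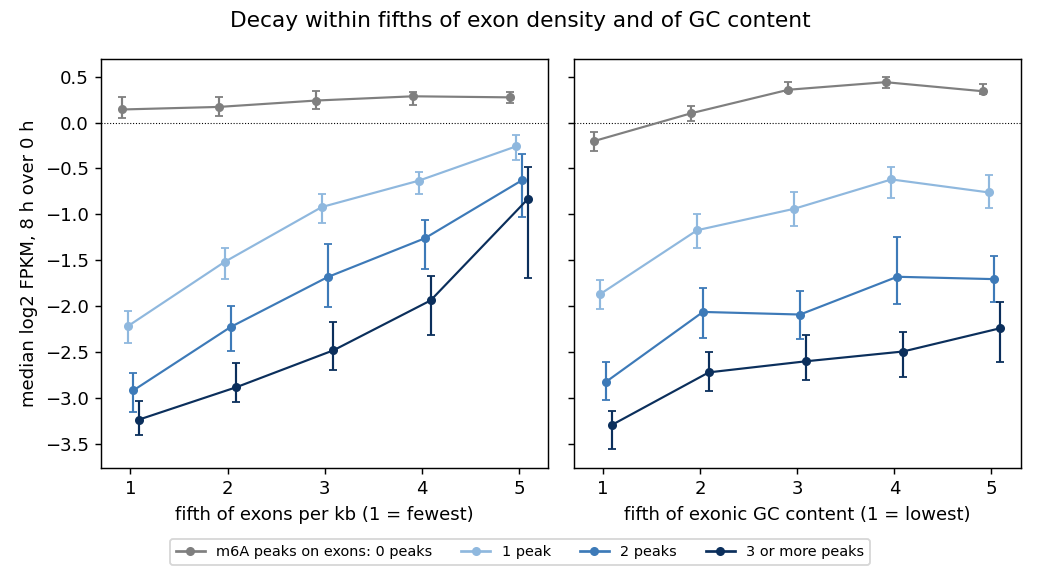
Median log2 ratio of FPKM at 8 h over 0 h (vertical axis) in 5 equal groups of genes by exons per kb (left) and by exonic GC content (right), with 95% order-statistic intervals. Lines of genes with peaks climb with exon density, from −2.22 to −0.26 for 1 peak, while the line of genes with 0 peaks runs from 0.14 to 0.28.

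The place of the peak went with decay as well as its number. Genes whose 1 peak lay in the CDS had a median of −1.76 (−1.88 to −1.64, 1503 genes) at 8 h over 0 h, those with a 3′UTR peak −0.68 (−0.76 to −0.58, 1839 genes) and those with a 5′UTR peak −0.39 (−0.56 to −0.18, 154 genes). Within bins of FPKM and length the 3′UTR genes stood 0.91 above the CDS genes (0.73 to 1.08), and were the lower ones in 3 of 25 bins. Against 0 peaks, the difference was −1.76 for 1 CDS peak and −0.78 for 1 3′UTR peak. From 4 to 8 h the 3′UTR genes were 0.25 above the CDS genes (0.19 to 0.32). When FPKM was matched with exon density in place of length, the difference between both places at 8 h over 0 h was 0.66, and it was 0.54 when the mean FPKM of the 3 libraries was matched and 0.56 in a linear model.

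The difference between places was also present inside last exons. Genes with their 1 peak in the CDS of the last exon were 1.37 lower than genes with it in the 3′UTR of the last exon (1.15 to 1.58 in size, 837 and 1651 genes), and lower in 23 of 24 bins. Within either place the medians differed little by distance to the gene's nearest annotated stop codon, measured on the genome. CDS peaks within 200 bases of it had a median of −1.80 and farther ones −1.75. 3′UTR peaks had −0.66 within 200 bases, −0.71 up to 1000 bases and −0.65 beyond. The medians by distance were not matched for FPKM and length.

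Medians of genes with 1 peak also differed by the kind of exon. The median was −1.13 for a peak in the last exon (2621 genes), −1.17 in an internal exon of at least 400 bases (595) and −1.89 in genes of 1 exon (198). It was −0.48 in the first exon (251 genes) and 0.17 in an internal exon under 400 bases (77, −0.01 to 0.45). These medians are not matched for FPKM and length. Long and short internal exons could be compared in 1 bin only, with 18 and 10 genes, where they differed by −0.06 (−0.85 to 0.72), so their contrast was hardly matched. Within bins, genes with the peak in a long internal exon stood 0.18 above those with it in the last exon at 8 h over 0 h, with an interval that included 0 (−0.02 to 0.39), and 0.14 above them at 4 h over 0 h, with one that did not (0.008 to 0.27).

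With 2 or more peaks the same order of places was seen. For 2 peaks the median was −2.80 with both in the CDS (440 genes), −2.23 with 1 in each place (597) and −1.23 with both in the 3′UTR (228). Within bins, genes with both in the CDS were 1.16 lower than genes with both in the 3′UTR (0.61 to 1.72 in size, 10 bins). Genes with 2 peaks in the 3′UTR thus had a higher median than genes with 1 peak in the CDS. For 3 or more peaks it was −2.16 with none in the CDS, −2.34 with 1, −2.98 with 2 and −3.002 with 3 or more.

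**Figure D4:**
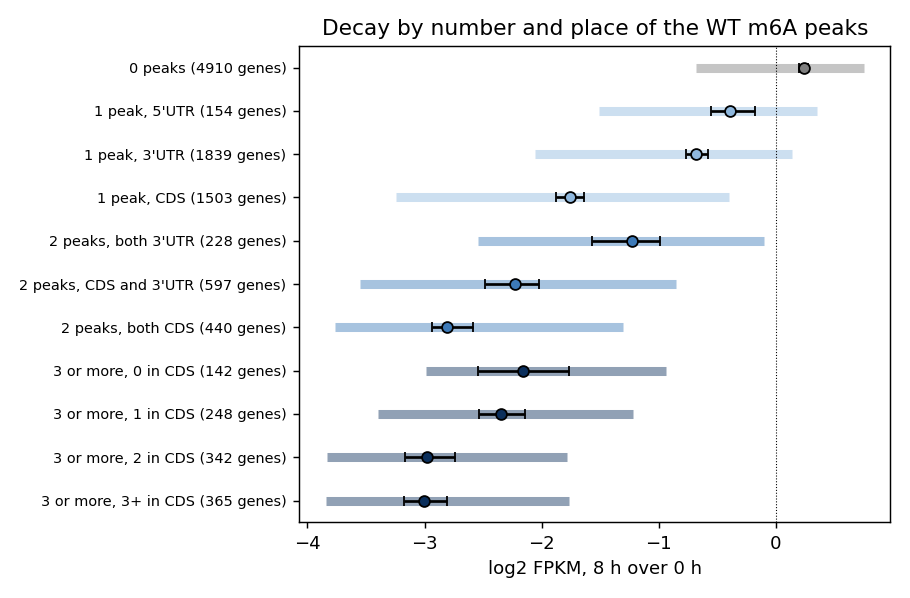
Log2 ratio of FPKM at 8 h over 0 h (horizontal axis) for genes grouped by number and place of their peaks. Points are medians with 95% order-statistic intervals and shaded bars span the quartiles of genes. Medians run from 0.24 for 0 peaks and −0.39 for 1 peak in a 5′UTR to −3.002 for 3 or more peaks in the CDS.

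Stronger and wider peaks went with lower levels at 8 h. Genes with 1 peak were divided within bins into 3 equal groups by its fold enrichment (IP over the local background, as the authors' caller gave it), and the strongest were 1.05 lower than the weakest (0.84 to 1.25 in size). Divided by the number of exonic bases under the peak, the widest were 1.58 lower than the narrowest (1.39 to 1.77 in size). The contrast by fold enrichment was 1.68 among CDS peaks and 0.69 among 3′UTR peaks, both with the stronger peaks lower. The contrast by the number of GGAC in the exons of genes with 0 peaks depended on what was matched. This number is a total that was not divided by length. Genes with many were 0.21 above genes with few (0.11 to 0.30, 1845 and 1968 genes) within bins of FPKM and length, and 0.32 below them when exon density replaced length. With GC content matched besides FPKM and length the contrast was 0.073, with an interval of −0.020 to 0.17 that included 0.

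Genes that fell furthest included a ligand and transcription factors. All genes named in this paragraph and the next were taken by rank among protein-coding genes with at least 500 counts at 0 h, which were 2179, 2170, 1028 and 753 genes in the order of the classes. With 3 or more peaks, *Nodal*, a ligand of the TGFβ family, had 891, 6 and 7 counts at 0, 4 and 8 h, and 0.99% remained at 8 h (0.40 to 2.05). *Fbxo34*, *Epc2* and *Noct* remained at 1.69%, 1.74% and 1.83%. With 2 peaks, *Cited2*, a partner of the coactivators CBP and p300, had 1937, 36 and 14 counts (0.91%), and the transcription factor *Klf2* had 7264, 112 and 60 (1.04%). *Zfp105* remained at 1.24%. With 1 peak, the zinc finger gene *Zfp296* had 1242, 19 and 5 counts (0.51%, 0.16 to 1.19). *Med26*, a subunit of Mediator, and *Irf2bp1* remained at 1.18% and 1.69%. The peaks of *Zfp296*, *Med26* and *Irf2bp1* lay in the CDS.

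Fast decay without a peak also occurred. *Lefty1*, an inhibitor of Nodal, had 700, 47 and 17 counts and remained at 3.06% (1.77 to 4.94), and *Nabp1*, *Taf4b* and *E2f7*, a repressor of the E2F family, remained at 3.43%, 4.02% and 4.06%. At the other end, some transcripts with peaks stood above their 0 h level. A peak counted for every gene whose exons it overlapped, on either strand. Peaks of these genes may therefore belong to an overlapping neighbour, which was not tested. *Glod4*, with 3 peaks, had 1289, 1838 and 2234 counts (219%), *Rcn1* 168% and *Col18a1*, a collagen gene of 44 exons, 158%. *Ubl5*, *Aida* and *Zbtb8os* with 2 peaks stood at 224%, 213% and 197%, and *Arpc3*, *Lamtor2* and *Calm3*, a calmodulin gene, with 1 peak at 236%, 235% and 228%. Of the genes with 0 peaks, *Gapdh* had 995, 242 and 2357 counts, a course unlike that of the other genes named, and many retrocopies of it share its sequence, so its value is uncertain. *Sumo2* and *Ndufa1* stood at 288% and 257%. The 50 genes with 3 or more peaks that were above their 0 h level had a median of 2.14 exons per kb and an FPKM of 20.7, against 1.64 and 7.27 for the other 1047.

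The genes with the most peaks were not those with the lowest level. *Ahnak* (17 peaks, exonic length 18543 bases) had 3302, 1229 and 319 counts and remained at 12.2%. *Dst* (16 peaks) and *Macf1* (13 peaks), both cytoskeletal linkers of 106 exons, remained at 28.9% and 38.9%. *Usp35*, whose peak had the highest fold enrichment of the protein-coding genes (53.4), remained at 27.4%, with 129, 59 and 28 counts, and *Ctif* (4 peaks, 49.4) at 11.2%. *Gm24270*, a gene of 57 bases with the highest value of all, stood at 126%. By exact number, the median log2 ratio was −2.65 for 3 peaks, −2.61 for 4, −2.94 for 5 and −3.08 for 6 or more, with intervals that overlapped, while the share that fell at least 2-fold was 80.6%, 80.8%, 92.0% and 91.4%. From 4 to 8 h the medians were −0.98 (−1.04 to −0.94), −1.12, −1.14 and −1.25 (−1.38 to −1.12), and those of 3 peaks and of 6 or more did not overlap in their intervals.

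Of 18 transcripts of pluripotency factors, 14 fell at least 2-fold at 8 h, against 43.5% of all genes. Their median was −2.79, and 16 carried a peak, as did 57.8% of all genes. *Klf4* (3 peaks, in the 5′UTR, CDS and 3′UTR) had 4220, 158 and 100 counts and remained at 2.99% (2.43 to 3.65). *Klf5* and *Tbx3*, with 3 peaks each, both remained at 2.84%, and *Nr5a2* at 4.12%. *Sox2*, a gene of 1 exon with 1 CDS peak, remained at 4.50% (8244, 493 and 294 counts), and *Zfp42*, likewise with 1 CDS peak, at 5.71%. *Sall4* and *Esrrb* carried 5 peaks each and remained at 10.0% and 21.2%, and *Tet1*, with 4, at 12.2%. *Nanog*, with 1 CDS peak, went down to 40.7% (8577, 4926 and 2763 counts). *Pou5f1*, which encodes OCT4, carried 1 weak CDS peak (fold enrichment 1.62) and stood at 180% (16974, 20227 and 24209 counts). *Lin28a* with 0 peaks stood at 103%. Factors of the same network thus spread over the whole range, and *Sox2*, *Zfp42*, *Nanog* and *Pou5f1* did so with 1 CDS peak each.

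**Figure D5:**
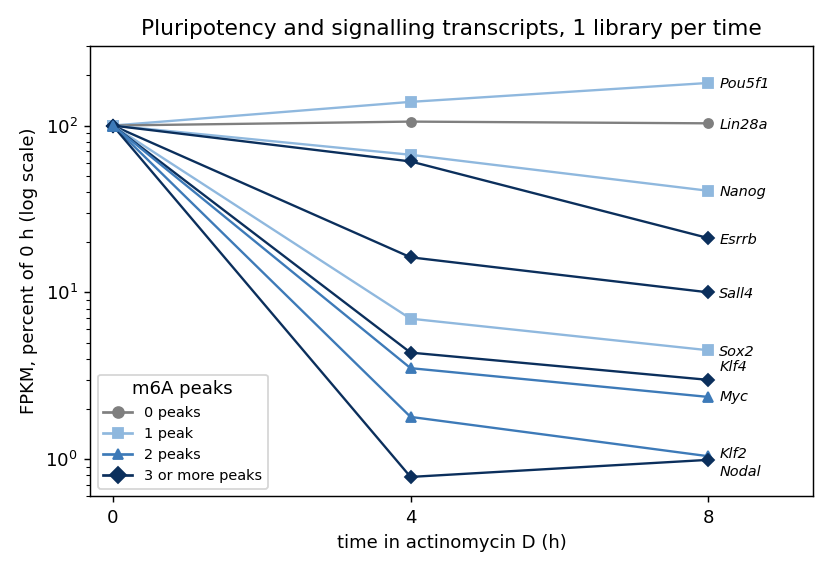
FPKM as a percentage of the 0 h library (vertical axis, log scale) against time in actinomycin D (h) for 10 transcripts, 1 library per time, coloured by number of m6A peaks. *Nodal* and *Klf2* end near 1%, *Sox2* at 4.50%, *Nanog* at 40.7% and *Pou5f1* at 180%.

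Transcripts of genes that signalling pathways induce mostly fell. The list holds inhibitors that limit their own pathway as well as targets and effectors such as *Myc*, *Ccnd1*, *Egr1* and *Cdkn1a*. Of 27 such genes 25 fell at least 2-fold, against 43.5% of all genes, with a median of −4.27, and 25 carried a peak, against 57.8%. *Socs3*, the inhibitor of LIF signalling, had 4164, 98 and 78 counts (2.36%, 1.86 to 2.96) with 1 3′UTR peak. *Dusp6*, a phosphatase of ERK, and *Axin2*, a brake on WNT signalling, had 2 peaks each and remained at 1.67% and 2.40%. *Myc* and *Mycn*, with 2 peaks each, remained at 2.36% and 2.58%. *Smad7*, an inhibitor of TGFβ signalling, carried 3 peaks and remained at 8.45%, and *Smad6* had 79, 2 and 3 counts, which gives 4.79% at 3 counts (0.97 to 14.5). The 2 exceptions were *Etv4*, with 0 peaks, at 125% and *Ccnd1*, with 1 weak CDS peak (fold enrichment 1.66), at 85.9%.

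Transcripts of the m6A machinery were themselves in every class. Of 19 genes 14 fell at least 2-fold, against 43.5% of all genes, and 14 carried a peak, against 57.8%. Among the writers, *Mettl3* with 0 peaks remained at 32.7%, *Mettl14* with 1 peak at 43.0% and *Wtap* with 3 at 9.03%. *Zc3h13*, with 6 peaks, remained at 18.4%, and *Virma*, with 3, at 61.5%. Of the erasers, *Alkbh5* with 2 peaks remained at 7.95% and *Fto* with 1 stood at 125%. Of the readers, *Ythdf1*, *Ythdf2* and *Ythdf3* carried 1, 2 and 3 peaks and remained at 6.12%, 5.73% and 16.4%, while *Igf2bp2*, *Igf2bp3* and *Hnrnpa2b1*, with 0 peaks each, stood at 107%, 128% and 164%. Other readers went against this order, *Ythdc2* with 0 peaks at 11.1% and *Ythdc1* with 4 at 47.0%. Of 15 genes of the CCR4-NOT and PAN deadenylases and their partners, 9 fell at least 2-fold, against 43.5% of all genes. Of the 15 genes 11 carried a peak, against 57.8% of all genes, and the median was −1.35. Their decay did not follow the number of peaks. Of those with 0 peaks 3 of 4 fell, with a median of −1.79, against 3 of 5 with 1 peak and 3 of 6 with 2. *Cnot6l*, a deadenylase subunit with 0 peaks, remained at 2.95%, and *Pan2*, a deadenylase subunit with 2, stood at 149%, both chosen after their values were seen.

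Gene families differed both in peaks and in decay. Of all genes 57.8% carried a peak, 43.5% fell at least 2-fold and 5.25% rose. Of 78 cytoplasmic ribosomal protein genes 66 had 0 peaks, none fell at least 2-fold, and their median was 0.73. Of 89 respiratory chain genes 78 had 0 peaks, 29 rose and 2 fell, both of these with 1 peak, and the median was 0.89. Of 45 proteasome genes 34 had 0 peaks, and the median was 0.67. Of 77 mitochondrial ribosomal protein genes 38 had 0 peaks and 18 fell. These were 9 of the 38 with 0 peaks, 6 of the 31 with 1 peak, 2 of the 7 with 2 and the 1 with 3 or more. The classes with 0 peaks and 1 peak thus did not differ in the usual direction by this count, while their medians were 0.41 and −0.11. By contrast, 270 of 293 *Zfp* genes, which encode zinc finger proteins, carried a peak and 273 fell, with a median of −3.41. Among the 23 *Zfp* genes with 0 peaks 14 fell, with a median of −1.93, below that of 0-peak genes as a whole. Of 21 histone genes 13 had 0 peaks, and 10 rose.

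The same genes, classed by the WT peaks, were followed in the METTL14 R255K libraries. There the medians at 8 h over 0 h were 0.13, −0.23, −0.57 and −0.80 in the order of the classes, against 0.24, −1.06, −2.07 and −2.71 in WT. Of all these genes 22.1% fell at least 2-fold in R255K, with 9.33%, 25.8%, 36.9% and 42.6% in the classes. Within the same bins of WT FPKM and length the differences from 0 peaks were −0.39 (−0.43 to −0.34), −0.74 (−0.81 to −0.66) and −0.97 (−1.07 to −0.86). The order of the classes was thus present in both lines, with smaller steps in R255K. In the group of lowest GC content the R255K medians were 0.24, −0.23, −0.35 and −0.75, against −0.20, −1.87, −2.83 and −3.30 in WT, and in that of highest GC content 0.05, −0.27, −0.63 and −0.85, against 0.34, −0.76, −1.71 and −2.24. From lowest to highest GC content the median of every class thus rose in WT and fell in R255K. With 1 library per line and time, a difference between the cells and one between the libraries cannot be told apart.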

How the data were processed

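After removal of rRNA reads (Bowtie2 2.2.6), the authors aligned to mm10 (HISAT2) and filtered for unique reads (Picard 2.16.0, SAMtools 0.1.09). They deposited whole counts per gene without normalization; the counter, its annotation and use of strand are not given in the sources used here. Peaks came from MACS2, and the deposited fold enrichment and −log10 q are those of its 1 list per genotype. The read depth behind the list is unknown. FPKM was computed from the counts, summed counts and the deposited exonic length, with counts under 3 set to 3 in ratios. Peaks were joined to the deposited exons by at least 1 base, without regard to strand, with bedtools 2.31.1. A peak on exons of several genes counted for each of them, and 777 peaks lay on 2 or more genes. Without genes that share a peak, the matched differences from 0 peaks at 8 h over 0 h were −1.15, −2.09 and −2.63. Places came from GENCODE vM21, in the order CDS, 3′UTR, 5′UTR, other exon, and 237 genes had no match there. Bins with under 10 genes of either class were left out. Scripts ran in Python 3.11.15 with numpy 2.4.6, pandas 2.3.3, scipy 1.17.1 and pysam 0.24.0, and were tested on simulated data. TMM factors came from edgeR 4.0.16, used for nothing else.

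The genes and lists were chosen with earlier results of these data known. Named genes were the 4 lowest and 3 highest of each class at 8 h over 0 h, those of the pluripotency, feedback and m6A lists, the 3 with the most peaks, the 3 with the highest fold enrichment, and *Klf4*, *Smad6* and *Smad7*. Symbols beginning with Gm or ending in Rik were left out of the ranks, and some genes of the ranks are not reported here. The R255K peak list was not used.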

Additional observations from a re-analysis of the deposited data

How the results depend on the processing

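The direction of the matched differences by peak number and by place was the same under all alternatives tried for them. TMM factors and scaling to ribosomal protein genes shift all genes alike and left these differences as they were, but moved the share of genes with 3 or more peaks that fell at least 2-fold at 8 h from 82.2% to 75.5% and 92.8%. In the next sentences, values for 1, 2 and 3 or more peaks against 0, for 3′UTR against CDS peaks and for that share follow each other. From 4 h over 0 h they were −0.62, −1.15, −1.53, 0.53 and 62.8%, and from 8 h over 4 h −0.41, −0.65, −0.84, 0.25 and 53.4%. With log2(FPKM + 1) they were −0.81, −1.38, −1.71, 0.64 and 74.0%. The same genes in the R255K libraries, a setting chosen after seeing the data, gave −0.39, −0.74, −0.97, 0.34 and 42.6%. With an FPKM of at least 5 and 100 counts, 1 peak gave −0.92, 2 peaks −1.80 and the share 78.9%. With a fold enrichment of at least 4, 1 peak gave −1.39, 2 peaks −2.32, the places 1.15 and the share 88.0%. When expression was the mean FPKM over the 3 libraries, 2 peaks gave −1.79, 3 or more −2.29 and the places 0.54. With exon density in place of length, 1 peak gave −1.26, 3 or more −2.75 and the places 0.66, and in a linear model 3 or more gave −2.33 and the places 0.56. The GGAC contrast among genes with 0 peaks was 0.064 from 4 to 8 h, 0.073 with GC content matched, 0.090 in a linear model, −0.0099 in the R255K libraries and −0.32 with exon density matched, against 0.21. It turned sign in the last of these, where length was not matched. In the R255K libraries it was just below 0, with an interval of −0.054 to 0.034 that included 0. With GC content matched its interval of −0.020 to 0.17 also included 0. The cause was not tested. Other alternatives moved values by less than their intervals.

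No paired analysis was possible because the results come from no test, with 1 library per time. Each ratio rests on 1 library at each end. The 4 h over 0 h values make no use of the 8 h library. In the 8 h over 4 h values the 0 h library did not enter the ratio, but it still chose the genes and formed the bins. Depth limits the lowest genes.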
